A study of Homo sapiens with 12 samples.

Results

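Of 63677 genes counted, 39 were taken as glycolysis and hypoxia-inducible genes by matching Ensembl identifiers to a fixed list of gene symbols. They comprised 19 glycolytic enzymes and regulators of phosphofructokinase, 4 glucose and lactate transporters, 15 other targets of the hypoxia-inducible factor (HIF) and HIF1A, the oxygen-regulated subunit of that factor. The rule used gene names and no measured value, but the members were chosen with earlier results of these data known. In the test across all genes, 38 of the 39 passed the filter on low counts and CA9 did not. CA9, a carbonic anhydrase at the cell surface and a classical hypoxia marker, had between 1 and 24 reads in every library.

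Glycolysis splits glucose into pyruvate and lactate, and tumour cells run it at a high rate even with oxygen present. In low oxygen the HIF-1α protein escapes prolyl hydroxylation and VHL-dependent destruction, pairs with ARNT and binds hypoxia response elements. It then raises transcription of glucose transporters, most glycolytic enzymes, VEGFA and its own hydroxylases. HIF-1α is controlled mainly through protein stability, so the mRNA counts below do not measure its activity. NFYA is the regulated subunit of the NF-Y complex, which binds CCAAT boxes in promoters.

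The study transfected HCT116 cells, an epithelial colon carcinoma line, and sequenced polyadenylated RNA from 12 libraries in 6 groups of 2. The siTotal1 and siTotal2 cells received 1 of 2 siRNA sequences against every NFYA transcript, and the siLong1 and siLong2 cells 1 of 2 sequences against the NFYA form with the long 3′ untranslated region. Mock cells were transfected without siRNA and siControl cells received a non-targeting siRNA. Every siRNA was used at 62.5 nM with Lipofectamine 2000 on wells seeded with 25000 cells, and cells were collected 72 h after transfection. The transfections were transient, all groups shared 1 line grown in ordinary culture, and the labels name no hypoxic exposure. The 2 libraries of each group came from separate biological replicates, per the study's description.

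Library totals ranged from 35604197 to 49746637 counted reads. Values are given as CPM, a gene's share of the library's reads on a common scale, after TMM scaling, which corrects for library composition. Differences are log2 ratios with their standard error (SE), 2 libraries a group, from the edgeR quasi-likelihood fit to all 17730 genes that passed the filter. A gene is called where its Benjamini-Hochberg adjusted p over those genes was below 0.05. A contrast named siTotal or siLong sets the average of both siRNAs of a target against 1 control. Intervals and p-values cover the spread between duplicates and, with 2 sequences per target, not the spread over sequences. NFYA itself lay at 46.8 to 47.9 CPM in siTotal1, 46.0 to 46.2 in siTotal2, 46.5 to 47.7 in siLong1, 69.7 to 70.1 in siLong2, 55.2 to 59.1 in mock and 57.4 to 57.5 CPM in siControl. The libraries labelled siLong2 thus went against their label at the level of the whole gene, which does not resolve the long form; siLong2 below means those libraries as labelled, and every siLong average includes them. Of 10 markers of this epithelial line 8 averaged at least 10 reads and summed to 3460 to 5700 CPM, while 0 of 8 blood markers and 1 of 4 endothelial markers did and PECAM1 was at 0. Of 9 fibroblast markers 5 reached that level, and the list summed to 26.4 to 46.2 CPM. In such bulk libraries, fewer cells expressing a gene and less RNA per cell cannot be told apart.

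The libraries of the control groups differed from each other in these genes. All 14 tested HIF targets were higher in the second siControl library than in the first, with a median log2 difference of 0.30, against 53.2% of all genes tested. The mock libraries showed it in 13 of 14 HIF targets, with a median of 0.20 and 56.4% of all genes on the same side. ANKRD37, of little known function, differed by 0.85 between the siControl libraries and by 0.50 between the mock libraries. BNIP3L, a receptor for removal of mitochondria, differed by 0.65 and 0.48, and NDRG1, a stress-responsive gene, by 0.59 and 0.58 in the siControl and mock pairs. HIF1A mRNA differed by -0.03 in the siControl pair and 0.04 in the mock pair. The enzymes shared the direction with smaller steps, in 19 of 19 in the siControl pair (median 0.0534) and in 18 of 19 in the mock pair (median 0.0854). In siTotal1 and siTotal2, 12 of 14 HIF targets each were higher in the second library (51.5% and 49.3% of all genes). In siLong1 it was 5 of 14 and in siLong2 10 of 14 (50.1% and 53.5% of all genes). Among these siRNA groups the HIF target medians were 0.0791 in siTotal1, 0.0669 in siTotal2, -0.047 in siLong1 and 0.0574 in siLong2. The part of this difference in the results was measured by leaving the libraries out, and its cause was not tested.

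**Figure D1:**
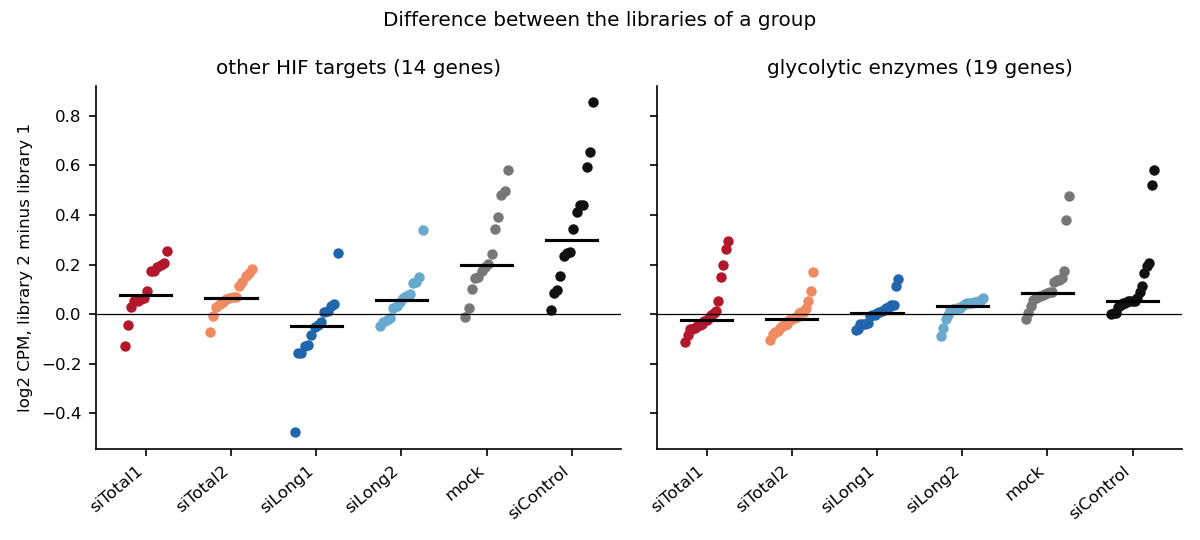
Each point is 1 gene, placed by its log2 CPM in the second minus the first library of a group, with a bar at the median of 14 HIF targets (left) or 19 enzymes (right). The siControl and mock points of the HIF targets lie almost all above 0, with medians of 0.30 and 0.20, while the siRNA groups have medians between -0.047 and 0.0791.

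Across the 6 groups, 33 of the 38 members differed (edgeR quasi-likelihood F test), beside 81.1% of all genes tested. They were 18 of 19 enzymes, all 4 transporters, 10 of 14 HIF targets and HIF1A. The members that did not pass were PFKFB4 (adjusted p = 0.16), a bifunctional enzyme that sets fructose 2,6-bisphosphate, and the HIF targets BNIP3 (0.0739), PDK1 (0.0759), P4HA1 (0.0842) and NDRG1 (0.833). The distance between the highest and lowest group mean had a median of 0.39 log2 units over the enzymes, 0.58 over the HIF targets and 0.91 over the transporters, against 0.69 over all genes tested and 0.51 over genes with an average log2 CPM above 4. SLC2A3 spanned 16.7-fold, ALDOC 3.05-fold, ENO2 2.64-fold, BNIP3L 2.59-fold, ANKRD37 2.44-fold and SLC2A1 2.3-fold between their extreme groups. At the other end, the muscle-type phosphofructokinase PFKM spanned 1.09-fold. Of the 19 enzymes 11 had their highest group mean in mock cells, whereas the 14 HIF targets peaked in mock and siControl 4 times each. Per kilobase of the principal transcript, GAPDH was the most abundant member in every group, at 2340 and 2400 CPM in siTotal1 and siTotal2, 2530 and 2210 in siLong1 and siLong2, 2780 in mock and 2380 CPM per kb in siControl.

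**Figure D2:**
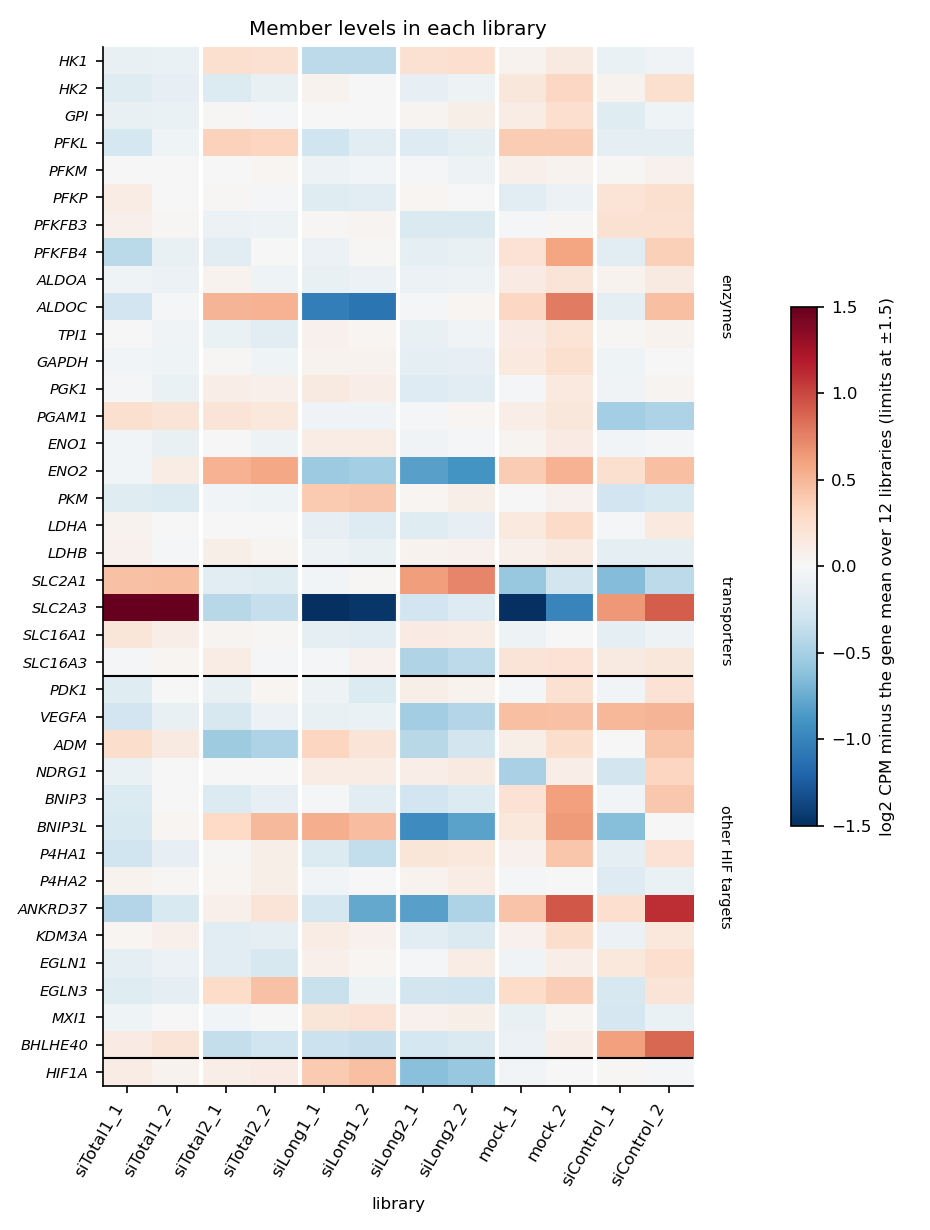
Rows are the 38 tested members and columns the 12 libraries, coloured by log2 CPM minus the gene's mean over all libraries, with the scale ending at ±1.5. The strongest colours are in SLC2A3, high in siTotal1 and low in siLong1 and mock_1, in ALDOC, low in siLong1, and in ENO2, low in both siLong groups.

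HIF1A mRNA split the siLong sequences. It had 125 and 130 CPM in siLong2 and 254 and 263 CPM in siLong1, with 208 and 200 CPM in siTotal1, 207 and 210 in siTotal2, 187 and 193 in mock and 196 and 191 CPM in siControl. Both siLong1 libraries stood above all others and both siLong2 libraries below all others. The siLong1 cells were 0.42 log2 units above siControl (1.34-fold, adjusted p = 2.79e-11, edgeR) and the siLong2 cells 0.60 below it (0.659-fold, adjusted p = 4.63e-15). The siLong2 and siLong1 cells differed by -1.02 log2 units, or 2.03-fold (adjusted p = 1.88e-21). Averaging them left a small siLong value against siControl of -0.09 ± 0.035, and the siTotal value was 0.09 ± 0.035 (SE). Both averages passed the threshold (adjusted p = 0.0262 and 0.0302, edgeR). Both missed it with DESeq2 size factors in the same fit (0.0663 and 0.0563), with mock and siControl pooled, and without the first siControl library. The siTotal call was also lost with no filter, and without mock_1, siControl_2, siTotal1_1, either siTotal2 library or any siLong library, each left out alone. The siLong call was also lost with upper quartile scaling, under DESeq2, and without siLong1_1 or siLong2_1. HIF1A lies at chr14:61695513-61748259 on the plus strand of GRCh38 and overlaps HIF1A-AS1 and HIF1A-AS2 on the other strand, and no source used here tells how strand was handled in the counting. HIF1A is 1 of 26 members that overlap a gene on the other strand.

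Among the transporters, the glucose importer SLC2A1 (GLUT1) was higher in cells given NFYA siRNAs, SLC2A3 (GLUT3) differed between the siRNAs and between the controls, and the lactate exporter SLC16A3 (MCT4) was lower. SLC2A1 had 341 and 344 CPM in siTotal1, 225 and 222 in siTotal2, 245 and 254 in siLong1, 390 and 417 in siLong2, 170 and 208 in mock and 160 and 192 CPM in siControl. All 8 libraries with an NFYA siRNA, siLong2 included, lay above all 4 control libraries. The siLong average was 0.85 ± 0.10 above siControl (1.80-fold, adjusted p = 0.000313, edgeR) and 0.75 above mock (1.68-fold, 0.000646). The siTotal average was 0.65 ± 0.10 above siControl (1.57-fold, adjusted p = 0.00164) and 0.55 above mock (1.47-fold, 0.00554). By single sequences, siTotal2 against mock did not pass (0.24, adjusted p = 0.175), and siTotal2 lay below siTotal1 by 0.62 (adjusted p = 0.00387).

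SLC2A3, a high-affinity glucose importer, was measured at 121 and 104 CPM in siTotal1, 13.9 and 14.7 in siTotal2, 6.55 and 6.78 in siLong1, 15.2 and 16.3 in siLong2, 6.41 and 9.34 in mock and 29.2 and 35.0 CPM in siControl. The groups siTotal1 and siControl stood apart from the other 4. The control groups themselves differed by -2.04 ± 0.18 (mock against siControl, 4.12-fold lower in mock, adjusted p = 6.93e-05), so the direction of 2 of the 4 siRNAs turned with the control. Against siControl, siTotal1 was 1.81 higher, whereas siTotal2, siLong1 and siLong2 had log2 differences of -1.17, -2.27 and -1.03, all called. Against mock, siTotal1 was 3.86 higher, siTotal2 0.88 higher and siLong2 1.02 higher, and siLong1 had a value of -0.22 that did not pass.

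SLC16A3 had 349 and 364 CPM in siTotal1, 385 and 352 in siTotal2, 353 and 372 in siLong1, 262 and 272 in siLong2, 407 and 414 in mock and 393 and 400 CPM in siControl. Every library with an NFYA siRNA was below every control library, by least in siTotal2_1. The siTotal average fell by 0.13 ± 0.037 against siControl (adjusted p = 0.00426, edgeR) and by 0.18 against mock, and the siLong average by 0.35 ± 0.037 and 0.40, with siLong2 below siLong1 by 0.44. The proton-linked transporter SLC16A1 (MCT1) was within 165 to 208 CPM in all libraries, and was called higher against siControl in siTotal (0.20) and siLong (0.10). Its siLong1 libraries, at 168 and 165 CPM, were not above siControl, at 166 and 174 CPM. The siLong call was lost without the first siControl library (0.0593, adjusted p = 0.356), without siLong1_1, siLong2_1 or siLong2_2, with no filter (0.0909) and with both controls pooled (0.0579).

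**Figure D3:**
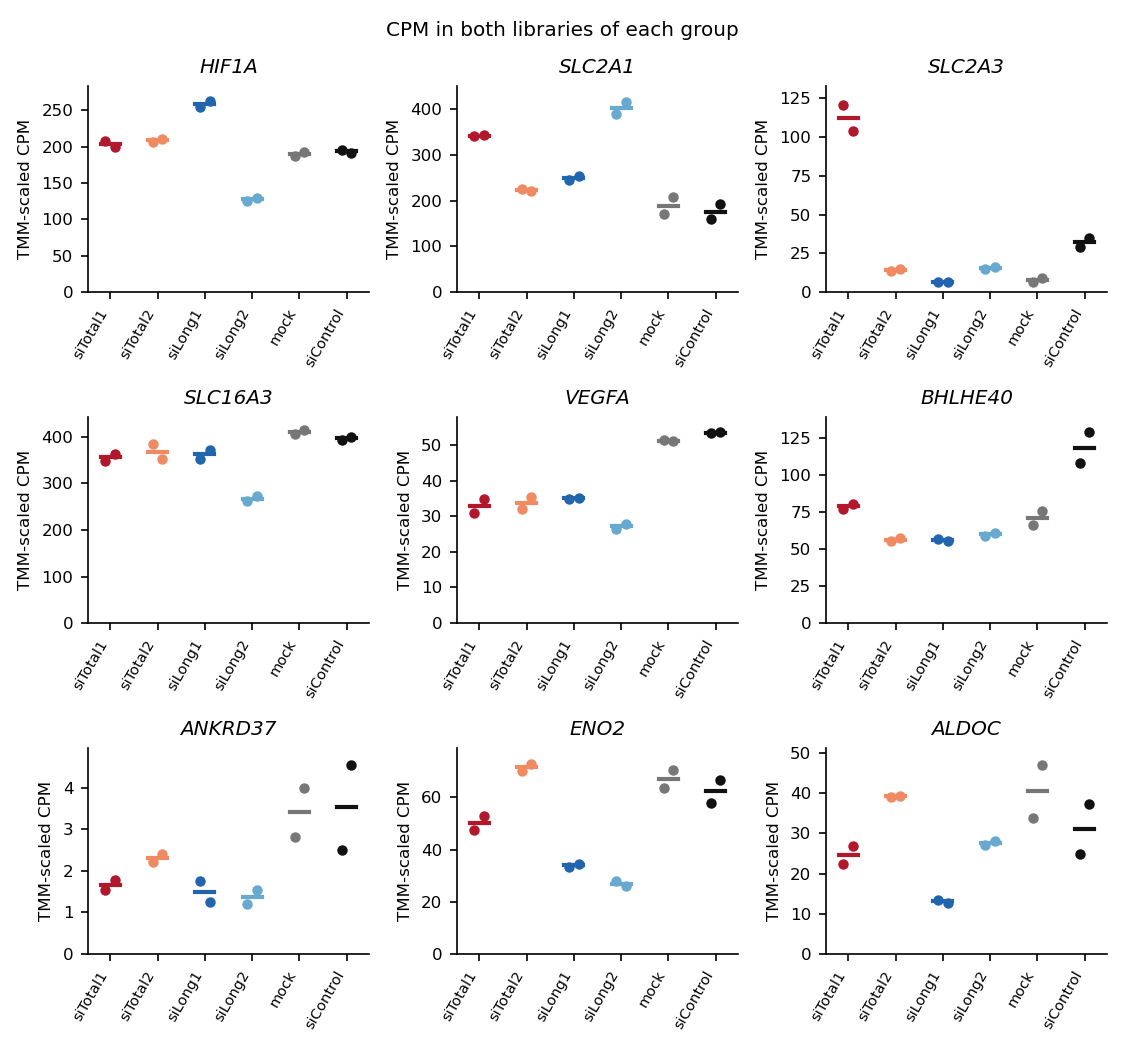
TMM-scaled CPM of 9 members in both libraries of each group (points) with the group mean (bar), on axes that start at 0. SLC2A1 and VEGFA separate all libraries with an NFYA siRNA from all control libraries in opposite directions, HIF1A separates siLong1 from siLong2, and the 2 points of ANKRD37 and of ALDOC lie far apart in both control groups.

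The members' calls went in both directions against siControl and leaned lower against mock. In siTotal against siControl 20 of 38 were called, beside 44.2% of all genes, with 10 higher (22%) and 10 lower (22.2%). In siTotal against mock 21 were called (30.8% of all genes), 5 higher (16.6%) and 16 lower (14.2%). In siLong against siControl 23 were called (53.5%), 8 higher (25.1%) and 15 lower (28.4%), and in siLong against mock 24 (50.8%), 3 higher (24.4%) and 21 lower (26.4%). Mock differed from siControl in 17 members (39.8%), 12 higher (19.5%) and 5 lower (20.3%). By single sequences against siControl the counts were 16 for siTotal1 (43.4% of all genes), 25 for siTotal2 (45.1%), 25 for siLong1 (54.5%) and 27 for siLong2 (52.7%). Against mock they were 24 for siTotal1 (40.9%), 17 for siTotal2 (26.7%), 25 for siLong1 (52%) and 28 for siLong2 (50.3%). Few called differences reached 1.5-fold, namely 5 members in siTotal and 7 in siLong against siControl (10.1% and 16.3% of all genes), 3 and 6 against mock (3.72% and 12.5%), and 3 in mock against siControl (9.24%). With each siRNA sequence as 1 replicate and mock and siControl pooled as the control, no member was called by edgeR in siTotal or siLong. There 6 and 7 members had an unadjusted p under 0.05. The share of all genes called in that setting was not taken, so these counts have no background beside them.

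Among the 19 enzymes, 10 were called in siTotal against siControl, beside 44.2% of all genes. They were 5 higher (22% of all genes) and 5 lower (22.2%), and the median log2 change was -0.0314. In siLong against siControl 12 were called (53.5%), 4 higher (25.1%) and 8 lower (28.4%), with a median of -0.0582. Against mock the calls leaned down. In siTotal 1 was higher (16.6% of all genes) and 10 lower (14.2%), with a median of -0.162. In siLong 1 was higher (24.4%) and 14 lower (26.4%), with a median of -0.166. The median over all genes tested was between -0.0149 and 0.0032 in these 4 contrasts. Mock itself exceeded siControl in 10 of the 12 enzymes called between the controls, with a median of 0.16 over the 19. Of all genes tested, 39.8% were called between the controls, 19.5% higher and 20.3% lower in mock.

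At the entry of the pathway, HK2, the inducible hexokinase, had 95.6 and 99.3 CPM in siTotal1, 94.1 and 100 in siTotal2, 112 and 109 in siLong1, 99.7 and 103 in siLong2, 122 and 134 in mock and 112 and 128 CPM in siControl. The siTotal libraries were all below the controls, and siLong1_1 reached the lower siControl library. HK2 fell by 0.30 ± 0.047 in siTotal against siControl (adjusted p = 1.1e-05, edgeR) and by 0.40 ± 0.046 against mock (adjusted p = 3.59e-07), with no difference called between siTotal2 and siTotal1. HK1, the constitutive hexokinase, had 143 and 146 CPM in siLong2 and 93.4 and 93.2 CPM in siLong1, beside 114 and 118 CPM in siControl. It therefore rose with siLong2 (0.32) and fell with siLong1 (-0.31), both called.

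PFKL, the liver-type phosphofructokinase, had 86.8 and 99.7 CPM in siTotal1, 132 and 130 in siTotal2, 84.8 and 93.5 in siLong1, 91.1 and 94.0 in siLong2, 136 and 136 in mock and 94.0 and 94.3 CPM in siControl. The siTotal2 and mock libraries formed the upper set and the other groups the lower one. The siTotal average was 0.23 above siControl and 0.30 below mock, and both were called. PFKM stayed at 195 to 217 CPM throughout, and its siLong values of -0.10 and -0.12 against siControl and mock were called (adjusted p = 0.0126 and 0.00242, edgeR).

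Further down, ALDOA, the main aldolase, had 1170 and 1150 CPM in siTotal1, 1260 and 1170 in siTotal2, 1130 and 1150 in siLong1, 1150 and 1160 in siLong2, 1330 and 1390 in mock and 1270 and 1340 CPM in siControl. The 8 libraries with an NFYA siRNA were the lowest of the 12. ALDOA fell by 0.14 ± 0.037 and 0.19 in siTotal against siControl and mock, and by 0.19 ± 0.037 and 0.24 in siLong (adjusted p from 7.94e-07 to 0.0026, edgeR). Without the second siControl library the ALDOA value in siTotal against siControl was -0.113 (adjusted p = 0.0856). PGAM1, a phosphoglycerate mutase, ran at 283 and 274 CPM in siTotal1, 275 and 267 in siTotal2, 231 and 232 in siLong1, 237 and 245 in siLong2, 257 and 270 in mock and 168 and 174 CPM in siControl. The siControl libraries were the lowest, the siLong libraries came next, and siTotal and mock overlapped above them. PGAM1 rose by 0.68 in siTotal and 0.47 in siLong against siControl, whereas against mock siTotal had a value of 0.06 (adjusted p = 0.181) and siLong fell by 0.16. PGAM1 has 13 named pseudogenes and GAPDH 62, and reads shared with such copies could not be told apart here.

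ENO2, the neuronal enolase, gave the largest enzyme difference called against both controls with both sequences of a target. It had 47.6 and 52.7 CPM in siTotal1, 70.2 and 72.8 in siTotal2, 33.5 and 34.4 in siLong1, 27.8 and 26.2 in siLong2, 63.7 and 70.4 in mock and 57.9 and 66.8 CPM in siControl. The 4 siLong libraries were the lowest, siTotal1 came next, and siTotal2 reached the highest control library. In siLong cells ENO2 fell by 1.04 ± 0.057 against siControl (0.486-fold, adjusted p = 8.98e-14, edgeR) and by 1.15 ± 0.056 against mock. The siTotal sequences were called in opposite directions against siControl, siTotal2 at 0.20 and siTotal1 at -0.32. ENO1, the widely expressed enolase, had values of -0.03 and 0.06 in siTotal and siLong against siControl, neither called.

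At the last steps, PKM rose and LDHA fell in siLong cells. PKM, the pyruvate kinase gene, had 1870 and 1840 CPM in siTotal1, 2060 and 2030 in siTotal2, 2780 and 2800 in siLong1, 2160 and 2250 in siLong2, 2100 and 2220 in mock and 1740 and 1810 CPM in siControl. The siLong1 libraries stood above all others. PKM was higher in siLong by 0.48 ± 0.038 against siControl and 0.20 against mock, and siLong2 against mock (0.03) was not called. Gene counts do not separate the M1 and M2 splice forms. LDHA, which reduces pyruvate to lactate, had 1280 and 1240 CPM in siTotal1, 1230 and 1240 in siTotal2, 1130 and 1080 in siLong1, 1090 and 1130 in siLong2, 1370 and 1510 in mock and 1210 and 1360 CPM in siControl. All siLong libraries were below all others. LDHA fell in siLong by 0.22 ± 0.042 against siControl (adjusted p = 5.48e-05) and by 0.38 against mock (adjusted p = 5.09e-09). In siTotal the value against siControl was -0.04 (adjusted p = 0.426), and against mock LDHA fell by 0.20.

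Of the 14 other HIF targets, 6 were called in siTotal against siControl (2 higher, 4 lower, beside 44.2% of all genes) and 5 against mock (all lower, beside 30.8%). In siLong 6 were called against siControl (2 higher, 4 lower, beside 53.5%) and 7 against mock (1 higher, 6 lower, beside 50.8%). Their median log2 change was -0.143 and -0.213 in siTotal against siControl and mock, and -0.145 and -0.255 in siLong. These medians moved with the control library left out. Without the second siControl library they were 0.0242 in siTotal and -0.00359 in siLong, and without the first -0.354 and -0.278. Against mock they were -0.111 in siTotal and -0.131 in siLong without the second mock library, and -0.316 and -0.385 without the first. Another alternative, leaving out the second library of both controls together, was added after the values were seen. The medians against siControl were then 0.00426 in siTotal and 0.00232 in siLong.

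VEGFA, the angiogenic growth factor, fell with every siRNA against both controls. It had 30.9 and 34.9 CPM in siTotal1, 31.9 and 35.5 in siTotal2, 34.9 and 35.2 in siLong1, 26.3 and 27.9 in siLong2, 51.4 and 51.0 in mock and 53.2 and 53.7 CPM in siControl. The 8 libraries with an NFYA siRNA ended at 35.5 CPM and the 4 control libraries began at 51.0 CPM. VEGFA fell by 0.68 ± 0.050 in siTotal against siControl (0.623-fold, adjusted p = 6.25e-14, edgeR) and by 0.62 against mock (0.65-fold, 3.16e-12). In siLong it fell by 0.80 ± 0.051 against siControl (0.576-fold, adjusted p = 6.11e-16) and by 0.73 against mock (0.602-fold, 6.29e-15). No difference was called between siTotal2 and siTotal1, siLong2 was 0.37 below siLong1, and mock against siControl was -0.06 (adjusted p = 0.406). VEGFA lies at chr6:43770184-43786487 on the plus strand of GRCh38.

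BHLHE40, a transcriptional repressor of the circadian and hypoxia response, had 77.2 and 80.7 CPM in siTotal1, 55.4 and 57.4 in siTotal2, 56.8 and 55.6 in siLong1, 58.9 and 61.0 in siLong2, 66.3 and 75.7 in mock and 108 and 129 CPM in siControl. The siControl libraries were far above the rest, and siTotal1 was above mock. It fell against siControl by 0.83 ± 0.064 in siTotal and 1.03 ± 0.064 in siLong (adjusted p = 1.24e-07 and 7.82e-09, edgeR). Against mock, siLong fell by 0.29 and siTotal had a value of -0.09 (adjusted p = 0.363), while mock itself was 0.74 below siControl.

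ANKRD37 was scarce, at 1.55 and 1.79 CPM in siTotal1, 2.22 and 2.4 in siTotal2, 1.75 and 1.24 in siLong1, 1.2 and 1.53 in siLong2, 2.82 and 4.0 in mock and 2.50 and 4.55 CPM in siControl. No library with an NFYA siRNA reached the lowest control library, although siTotal2_2 came close to it. The siLong average fell by 1.30 ± 0.24 against siControl (0.406-fold, adjusted p = 0.000284, edgeR) and by 1.24 against mock, and the siTotal average by 0.84 ± 0.23 and 0.78. Without the second siControl library the siTotal value against siControl was -0.355 (adjusted p = 0.218). The siTotal value against mock was -0.518 (adjusted p = 0.144) without the second mock library and -0.747 (0.0555) without the first siTotal1 library.

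The oxygen sensor EGLN1 (PHD2) had 56.4 and 58.8 CPM in siTotal1, 55.7 and 53.0 in siTotal2, 66.0 and 64.1 in siLong1, 61.6 and 67.5 in siLong2, 60.6 and 66.9 in mock and 70.0 and 74.9 CPM in siControl. The siTotal libraries were below every other library. EGLN1 fell in siTotal by 0.37 ± 0.046 against siControl (adjusted p = 2.77e-08, edgeR) and by 0.19 against mock (adjusted p = 0.0019), and the value against mock was -0.116 (adjusted p = 0.141) without the second mock library. In siLong it was 0.16 below siControl and 0.02 above mock, the second not called, and without the second siControl library the value against siControl was -0.119 (adjusted p = 0.0938). Its paralogue EGLN3 (PHD3) was 0.56 lower in siLong against mock, and siTotal2 exceeded siTotal1 by 0.53. The vasodilator peptide ADM was lower with siTotal2 (-0.72) and siLong2 (-0.56) against siControl, whereas siTotal1 and siLong1 had values of -0.01 and 0.04. MXI1, an antagonist of MYC, was higher in siLong against siControl (0.31) and mock (0.17), and P4HA2, a collagen prolyl hydroxylase, was higher against siControl in siTotal (0.20) and siLong (0.18). Without the first siControl library neither P4HA2 value was called (0.139, adjusted p = 0.0772, and 0.128, adjusted p = 0.09), nor with both controls pooled (0.12 and 0.105).

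Asking for a call in the same direction against both controls, by the average and by each sequence, left few members. For siTotal these were HK2, ALDOA, SLC16A3, VEGFA and EGLN1, all lower, or 5 of 38 beside 1.83% of all genes, and 0 members were higher beside 2.45%. For siLong they were PFKM, ALDOA, ENO2, LDHA, SLC16A3, VEGFA, ANKRD37 and BHLHE40 on the lower side (8 of 38, beside 7.24% of all genes) and SLC2A1 on the higher side (1 of 38, beside 6.71%). ALDOA, SLC16A3 and VEGFA met the rule for both targets, and 0.508% of all genes did so on the lower side, while 0 members met it on the higher side beside 0.874% of all genes. The contrasts of both targets share the control libraries. Under the normalization alternatives, without the filter, under DESeq2 and with each library left out in turn, VEGFA and HK2 met the siTotal rule every time, and ALDOA, ENO2, VEGFA and ANKRD37 the siLong rule every time. From the siTotal list, ALDOA was lost without siTotal2_2, siControl_2 or mock_2, SLC16A3 without siTotal2_2 or either siControl library, and EGLN1 without mock_2 or siTotal1_1. ALDOA and SLC16A3 were also lost there with DESeq2 size factors or upper quartile scaling in edgeR, SLC16A3 with library totals alone, and EGLN1 and SLC16A3 under DESeq2. From the siLong list, LDHA was lost without siControl_2, SLC16A3 without siControl_2 or siLong1_1, SLC2A1 without either siLong1 library, and BHLHE40 without mock_2 or siLong2_1. PFKM was lost there without any 1 of mock_1, siControl_2, siLong1_1 or siLong2_2, and with DESeq2 size factors, upper quartile scaling, no filter or DESeq2. SLC2A1 joined the siTotal list as higher with no filter and without mock_2 or siControl_2. ANKRD37 (no filter, without mock_1 or siControl_1), TPI1 (upper quartile scaling, library totals, without siTotal1_1) and BNIP3 (without siControl_1) joined it as lower. HK2 joined the siLong list as lower with library totals, no filter, and without either mock, siTotal2 or siLong2 library or siControl_1. MXI1 (higher, without mock_2), BNIP3 and EGLN3 (lower, without siControl_1) joined it too.

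**Figure D4:**
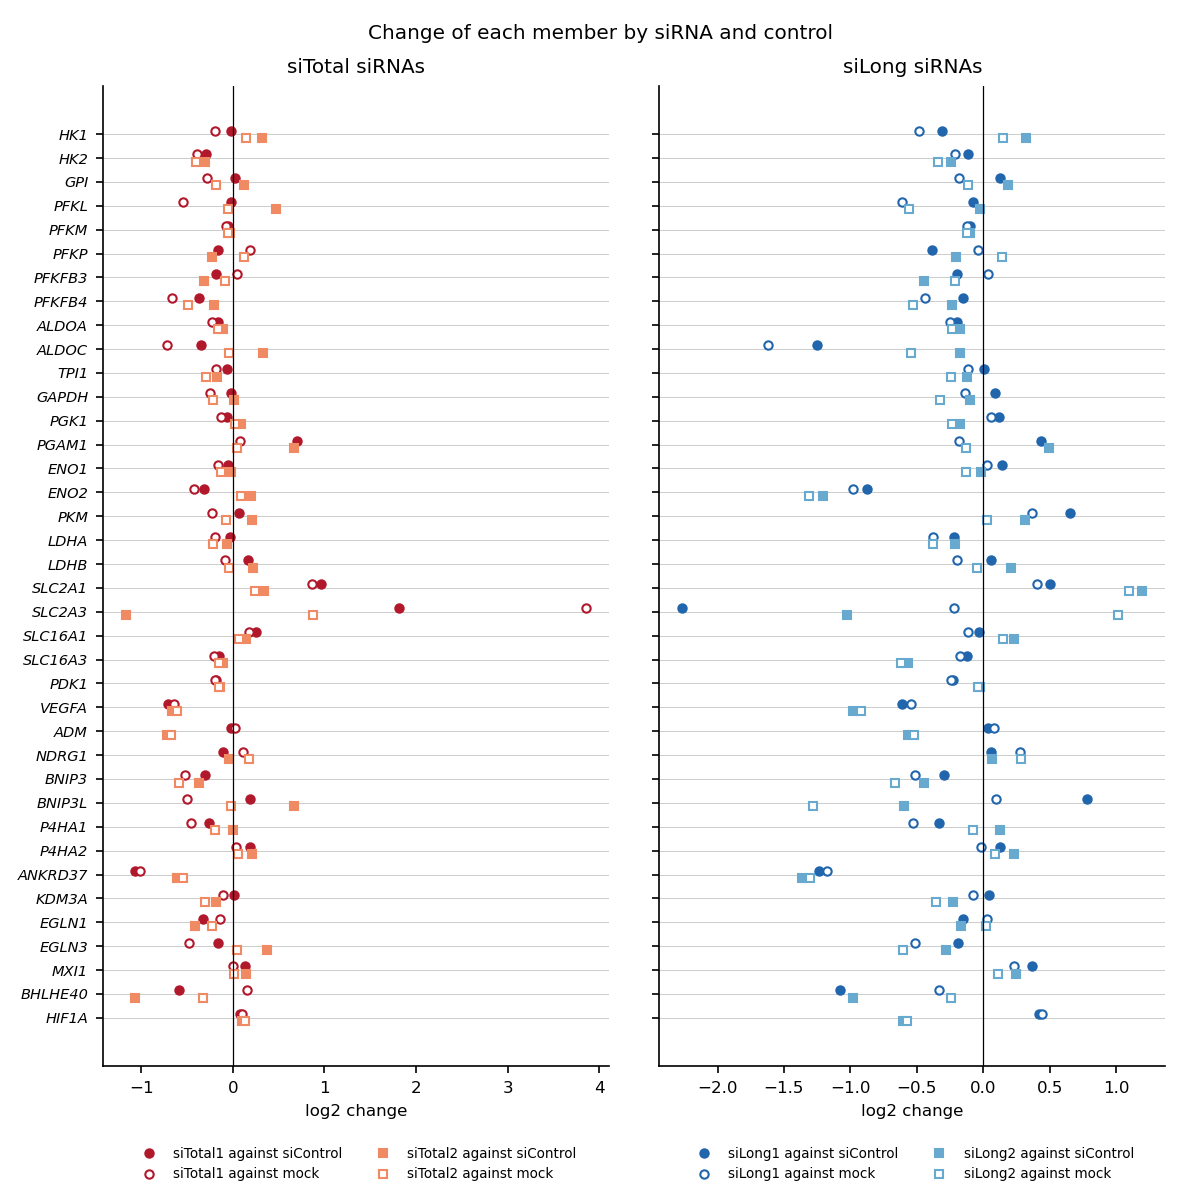
Log2 change of each member (rows) with each siTotal sequence (left) and each siLong sequence (right), against siControl (filled) and mock (open). VEGFA and ANKRD37 lie left of 0 in all 8 comparisons and SLC2A1 right of 0 in all 8, HIF1A splits between the siLong sequences, and SLC2A3 spreads from -2.27 to 3.86.

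Set directly against each other, the targets differed in 21 members (53.4% of all genes), 15 higher (28.1%) and 6 lower (25.3%) in siTotal than in siLong. At least 1.5-fold were 3 of them (11.4% of all genes), all higher in siTotal. SLC2A3 was 1.97 ± 0.13 higher (adjusted p = 7.64e-06, edgeR), ENO2 0.98 ± 0.048 higher (1.26e-14) and ALDOC, the brain-type aldolase, 0.71 ± 0.18 higher (0.0139). The SLC2A3 difference came with siTotal1, since siTotal2 (13.9 and 14.7 CPM) lay below siLong2 (15.2 and 16.3 CPM). PKM was 0.35 ± 0.030 lower in siTotal (adjusted p = 2.49e-12) and EGLN1 0.21 lower (1.85e-05). ALDOC had 22.4 and 26.8 CPM in siTotal1 and 39.1 and 39.4 CPM in siTotal2, against 13.4 and 12.8 CPM in siLong1 and 27.2 and 28.1 CPM in siLong2. Its siTotal1 libraries thus lay just below those of siLong2, with siTotal2 above both and siLong1 below both. Sequences of 1 target also differed from each other, in 14 members for siTotal2 against siTotal1 (43.9% of all genes) and in 21 for siLong2 against siLong1 (53.7%). BNIP3L had 19.1 and 20.9 CPM in siLong2 and 53.4 and 50.4 CPM in siLong1, a log2 difference of -1.38 (adjusted p = 0.00425).

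The promoters were searched because NF-Y binds CCAAT and HIF binds a short core. RefSeq promoter windows (GRCh38.p14, 250 bases before to 50 after a start site) were held for 34 of the 39 members, 64 windows in all. VEGFA was not among the members with a window. CCAAT on either strand was found in 29.7% of the members' windows and in 34.6% of all 35116 windows, while by gene it was found in at least 1 window of 44.1% of the members (15 of 34) and of 39.7% of all genes. The core, written as ACGTG or GCGTG on either strand with CACGTG counted once per strand, was found in 67.2% of the members' windows and in 48.4% of all windows, and by gene in 91.2% of the members and 52.4% of all genes. A gene counted if any of its windows held the motif. The 34 members had 64 windows and all 27305 genes had 35116, so the shares by gene also reflect the number of windows. Stretches from members with results above are shown for their motif matches, in capitals, read on the strand of the gene. HK2 (chr2:74834059-74834088, plus strand, bases -68 to -39 from the start site) holds both motifs, as does HIF1A (chr14:61695289-61695318, plus). The SLC2A1 (chr1:42958899-42958928, minus) and ANKRD37 (chr4:185396608-185396637, plus) stretches hold CCAAT, and those of LDHA (chr11:18394470-18394499, plus), SLC16A3 (chr17:82228968-82228997, plus) and ENO2 (chr12:6914449-6914478, plus) hold the core.
HK2: gcgcagCCAATggGCGTGcgCACGTcactg
HIF1A: ctcctgATTGGctgagagcgGCGTGggctg
SLC2A1: ccggcgtcgccagCCAATggccggggtcct
ANKRD37: catccacagctggCCAATcggcggatggcc
LDHA: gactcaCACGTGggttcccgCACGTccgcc
SLC16A3: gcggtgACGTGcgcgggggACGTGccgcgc
ENO2: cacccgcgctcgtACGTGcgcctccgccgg
ATTGG is CCAAT, and CACGT is ACGTG, on the other strand, and CACGTG holds the core on both strands. The members with CCAAT in a window and a test, 14 genes, had median log2 changes of -0.0125 in siTotal and -0.0919 in siLong against siControl. Those without it, 19 genes, had medians of -0.0589 and -0.194. Against mock the medians in siTotal and siLong were -0.107 and -0.131 with CCAAT, and -0.205 and -0.232 without it. Of the members that met the rule over both controls for a target, SLC2A1 (higher) and HK2, ALDOA, PFKM and ANKRD37 (lower) carry CCAAT. SLC16A3, EGLN1, ENO2, LDHA and BHLHE40, all lower, had none in their windows, and VEGFA had no window. A relation of CCAAT to these changes was not tested.

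Genes around the pathway moved in both directions, beside 22% of all genes higher and 22.2% lower in siTotal against siControl, and 25.1% and 28.4% in siLong. Of 24 tested further genes of glycolysis and pyruvate use, 8 were higher and 9 lower in siTotal against siControl, and 6 higher and 8 lower in siLong (medians 0.105 and 0.0433). PCK2, the mitochondrial phosphoenolpyruvate carboxykinase, fell in siLong by 1.34 ± 0.069 against siControl and 1.51 against mock. TIGAR, a fructose bisphosphatase, was 0.41 and 0.40 higher in siTotal and 0.52 and 0.52 higher in siLong against siControl and mock. MPC1, a subunit of the mitochondrial pyruvate carrier, was 0.55 and 0.48 higher in siLong. PFKFB2 was 0.50 below siControl in siTotal and 0.43 below it in siLong. Against mock it was 0.13 higher in siLong and not called in siTotal. Of 12 HIF regulators, 5 were higher and 4 lower in siTotal against siControl, and 3 higher and 4 lower in siLong (medians -0.0177 and -0.043). CITED2, which competes with HIF-1α for its coactivators, rose by 0.34 and 0.41 in siTotal and by 0.67 and 0.73 in siLong against siControl and mock. VHL, the substrate receptor of the ligase that marks HIF-1α for degradation, was 0.70 higher in siLong against siControl and 0.16 against mock, while in siTotal it was 0.36 above siControl and 0.19 below mock. CREBBP was 0.40 and 0.12 higher in siTotal and 0.45 and 0.16 higher in siLong against siControl and mock. EPAS1 was 0.38 below siControl in siTotal and 0.29 below it in siLong, and 0.16 above mock in siLong. ARNT2 fell by 0.64 and 0.45 in siLong against siControl and mock, and by 0.32 in siTotal against siControl. The siTotal values of EPAS1 and ARNT2 against mock were not called. Of 27 further hypoxia targets, 5 were higher and 8 lower in siTotal against siControl, and 12 higher and 7 lower in siLong (medians -0.0649 and 0.0269). The chemokine receptor CXCR4 was 2.05 ± 0.39 above siControl and 0.95 above mock in siTotal, and 1.56 ± 0.41 above siControl in siLong, where the value against mock (0.47) was not called. DDIT4, a stress-induced inhibitor of mTORC1, was 0.91 ± 0.23 below siControl and 1.45 below mock in siTotal. ANGPTL4 was 1.15 ± 0.36 below siControl in siTotal and 1.26 ± 0.36 below it in siLong, and its values against mock were not called. TMEM45A was 1.07 ± 0.094 below siControl and 0.41 below mock in siLong. In siTotal it was 0.57 below siControl and not called against mock.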

How the data were processed

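RNA from 12 HCT116 libraries was sequenced as stranded polyadenylated libraries, per the labels' protocols. The authors deposited raw read counts per Ensembl gene. STAR 2.4.0f1, featureCounts and hg19 are named in the submitters' processing notes, while the annotation release and the strand setting are not stated in any source used here. Symbols and GRCh38 positions came from GENCODE 29, and 52181 of 63677 identifiers matched a current symbol. Groups followed the sample labels, 2 libraries each.

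Genes with at least 10 reads in enough libraries and 15 in all (filterByExpr) were kept, 17730 genes. They were scaled by TMM and fitted with edgeR 4.0.16 (robust quasi-likelihood, R 4.3.3) over all 6 groups without covariates, with 6 residual degrees of freedom. The common biological coefficient of variation was 3.57%. Contrasts set siTotal or siLong (mean of both sequences), or each sequence, against mock and siControl. P-values were Benjamini-Hochberg adjusted over all genes tested, and log2 CPM used a prior count of 2. The procedure was tested on simulated data.

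Every member could be named. Library values were given for HIF1A, for members called in 1 direction against both controls by a target's mean and each sequence, and for the 3 largest called rises and falls of a target against siControl. They were given for a few further members after their values were seen. Other genes came from gene lists, at most 3 per list and target. Members and lists were chosen with earlier results of these data known. Alternatives were other normalizations, no filter, DESeq2 1.42.0, a replicate block, pooled controls, each sequence as 1 replicate with pooled controls, and leaving out libraries. Promoter sequences were from RefSeq (GRCh38.p14).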

Additional observations from a re-analysis of the deposited data

Results flagged for a closer look

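In 5 cases the siRNA sequences of 1 target were called in opposite directions against siControl, and the difference between the sequences was itself called (edgeR quasi-likelihood, Benjamini-Hochberg adjusted p). Each sequence had 2 libraries, and the causes were not tested.

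For siLong2 against siLong1, HIF1A differed by -1.02 log2 units (adjusted p = 1.88e-21), with siLong2 at -0.60 and siLong1 at 0.42 against siControl. HK1 differed by 0.634 (adjusted p = 2.66e-15), with siLong2 at 0.32 and siLong1 at -0.31. PGK1, phosphoglycerate kinase, differed by -0.295 (adjusted p = 1.58e-06), with siLong2 at -0.17 and siLong1 at 0.12. The libraries labelled siLong2 are those in which NFYA was higher than in siControl.

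For siTotal2 against siTotal1, SLC2A3 differed by -2.98 (adjusted p = 3.25e-06), with siTotal2 at -1.17 and siTotal1 at 1.81 against siControl. ENO2 differed by 0.512 (adjusted p = 4.8e-07), with siTotal2 at 0.20 and siTotal1 at -0.32.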

How the results depend on the processing

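With each siRNA sequence as 1 replicate, mock and siControl were also pooled as the control, so that setting changed both choices and gave 1 contrast per target in place of those against siControl and against mock. There 0 members were called by edgeR for siTotal, for siLong or between siTotal and siLong, and 6, 7 and 3 had an unadjusted p under 0.05. DESeq2 was not run at that level. With pooling alone (mock and siControl as 1 group of 4 libraries), 11 members were called for siTotal, 10 for siTotal1, 7 for siTotal2 and 16 for siLong1. The rule over both controls gave 3 members for siTotal under DESeq2 and 3 with DESeq2 size factors in edgeR.

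At a size of at least 1.2-fold in place of 1.5-fold, 13 members were called in siLong against siControl, 7 in siTotal against mock, 12 in siLong against mock, 6 between siTotal and siLong and 8 in mock against siControl. At 2-fold the counts were 0 in siTotal and 4 in siLong against siControl, 1 in siTotal and 3 in siLong against mock, 1 between siTotal and siLong and 1 in mock against siControl.

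The enzyme medians were -0.0911 in siTotal and -0.123 in siLong with pooled controls, and -0.088 and -0.117 with each sequence as 1 replicate. The transporter medians were 0.38 in siTotal and -0.158 in siLong with pooled controls, and 0.40 and -0.144 with each sequence as 1 replicate. Without mock_2 and siControl_2 together, added after seeing the data, the enzyme medians were 0.0402 in siTotal against siControl and -0.11 against mock. The transporter medians were then 0.346 in siTotal against siControl, 0.428 against mock and 0.365 in siLong against mock. The HIF target medians were 0.00426 in siTotal and 0.00232 in siLong against siControl, and -0.131 in siLong against mock.

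Leaving out 1 library at a time, enzyme medians ranged from -0.08 to 0.0288 in siTotal against siControl, from -0.229 to -0.111 in siTotal against mock and from -0.218 to -0.134 in siLong against mock. HIF target medians ranged from -0.354 to 0.0242 in siTotal and from -0.278 to -0.00359 in siLong against siControl, and from -0.385 to -0.131 in siLong against mock. Transporter medians ranged from 0.17 to 0.335 in siTotal against siControl, from 0.243 to 0.428 against mock and from 0.0561 to 0.365 in siLong against mock. The rule over both controls gave 3 to 6 members for siTotal and 6 to 12 for siLong. Members called ranged from 16 to 26 for siTotal2 against siControl and from 9 to 20 for siTotal2 against mock, both lowest without siTotal2_2.

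Among single-member values under the alternatives, 217 lost a call and 129 gained one with the sign kept. Another 15 changed sign and were called in the main fit, in the alternative or in both. The other 2831 kept their side of the threshold, and sign changes of values called in neither fit were counted among them. The cause was not tested. With pooled controls and with each sequence as 1 replicate, PFKL in siTotal against siControl was -0.0589 and -0.0387, PKM -0.015 and -0.0125, PFKP in siTotal against mock -0.0311 and -0.0314, PGAM1 in siLong against mock 0.121 and 0.125, and LDHB 0.000982 and 0.00526. GPI in siLong was -0.00417 against siControl with pooled controls and 0.00123 against mock with each sequence as 1 replicate, and HIF1A in siLong was 0.0108 in that setting. Without mock_2 and siControl_2, ALDOC and NDRG1 in siTotal against siControl were 0.314 and 0.254.

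The replicate numbers were tested for pairing. Over 15 pairs of groups the correlations of same-numbered deviations, taken over all genes tested, lay between -0.0851 and 0.0991. None was over 0.1, so the numbers were not taken to pair the samples. Correlations over all genes could not show a pairing confined to few genes, such as the HIF targets. The highest was that of mock and siControl, where 13 of 14 and 14 of 14 HIF targets were higher in the second library. Their library differences were close in some HIF targets (0.582 and 0.594 in NDRG1, 0.344 and 0.345 in P4HA1) and further apart in others (0.10 and 0.439 in EGLN3, 0.172 and 0.41 in ADM). With the replicate block, 21 and 25 members were called in siTotal and siLong against siControl, 23 and 26 against mock, 23 between siTotal and siLong, 20 in mock against siControl and 37 over the 6 groups.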

Other observations

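The pentose phosphate pathway branches from glycolysis and supplies NADPH and ribose. All 7 of its listed genes were tested. In siTotal against siControl 3 were called higher and 2 lower (edgeR, 44.2% of all genes were called), and in siLong 2 higher and 1 lower (53.5%). Against mock 1 was higher and 4 lower in siTotal (30.8%) and 1 higher and 5 lower in siLong (50.8%). Mock exceeded siControl in 5 of the 6 genes called between the controls (39.8% of all genes were), with a median log2 difference of 0.319 beside 0.0069 over all genes tested. RPIA, a ribose phosphate isomerase, fell by 0.29 in siTotal and by 0.20 in siLong against siControl, and its values against mock were not called.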
